A study of Homo sapiens with 6 samples.

Results

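The genes described here encode proteins of the cytosolic ribosome, in K562 cells with a miR-543 vector and K562 cells with a control vector. They were taken by symbol as RPL or RPS followed by a number, with an optional A, X, L or L1, or as RPLP0, RPLP1, RPLP2 or RPSA, leaving out the RPS6K kinases, the RPS4Y genes and pseudogenes. The rule found 52 genes, 20 of the small subunit and 32 of the large subunit, among 17687 named genes on 21448 probe sets. Each member had 1 probe set, and all 52 entered the comparison. Further ribosomal protein genes, among them RPL4, RPL5, RPLP0, RPLP2, RPSA, RPS2 and RPS3, had no probe set under their symbol in the platform annotation used. They were not analysed here. Without the genes with an L or L1 suffix the members number 45, so the counts below cover only a part of the ribosome's proteins. The platform annotation used gave no name to 3739 probe sets.

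K562 is an established erythroleukaemia line. Total RNA was hybridised to 6 single-colour arrays, 3 of K562 cells with a control vector and 3 of K562 cells overexpressing miR-543 from a vector. The vector's promoter, the number of clones and the time after its introduction are not given in the sources used here. Whether the replicates are separate cultures is not given either, and the p-values then reflect only how far these arrays spread, which may be technical. Of 10 erythroid markers of K562, 6 were named and all 6 lay above the array medians, from KLF1 at a mean log2 signal of 7.14 to HBE1 at 15.8. Above those medians also lay 2 of 5 lymphocyte markers, 1 of 5 fibroblast markers and 1 of 4 epithelial markers, the last being EPCAM at 13.5. In bulk RNA, fewer cells of a type and less RNA per cell cannot be told apart.

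The ribosome pairs a small subunit, which holds the mRNA and reads its codons, with a large subunit, which joins amino acids and threads the new chain through an exit tunnel. Ribosomal protein mRNAs are among the most abundant in dividing cells. Most begin with a C followed by a run of C and T bases, the 5′ terminal oligopyrimidine tract, through which LARP1 and the kinase complex mTORC1 control how often they are translated. Loss of a single copy of several of these genes causes Diamond-Blackfan anaemia, in which red cell precursors fail, so their dosage has been studied closely in erythroid cells.

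The microRNA whose vector defines the comparison is shown first, as RefSeq gives it, with its seed (bases 2 to 8) in capitals, since the seed is the part that pairs with target mRNAs. It lies at chr14:101032033-101032054 of GRCh38.p14, on the plus strand.
hsa-miR-543: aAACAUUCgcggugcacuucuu
The members' mRNAs were not searched for matches to this seed here.

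The start sites that follow show how the tract appears at most, but not all, of the core genes given and at few of their relatives. RefSeq start sites were matched for 46 of the 52 members, and for RPL30, RPL37, RPL39L, RPL3L, RPL7 and RPS15A none was matched. A run of at least 8 C or T bases on the transcript's own strand, within 20 bases on either side of the start, was present in 38 of 46 members (82.6%). The share was 16.6% among all 14250 genes of the array with a start site in the same table. The start base was C in 32 of 46 members (69.6%), against 10.9% of those genes, and a run of at least 5 C or T bases beginning with a C at the start base was present in 30 of 46 (65.2%), against 4.48%. Each line gives 15 bases before the start and 15 from it onward, 5′ to 3′, from RefSeq on GRCh38.p14, with the longest C or T run of the window in capitals.
RPL14, chr3:40457324-40457353, plus strand: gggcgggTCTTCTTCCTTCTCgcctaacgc
RPL22, chr1:6199581-6199610, minus strand: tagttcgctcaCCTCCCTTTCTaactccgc
RPS24, chr10:78033848-78033877, plus strand: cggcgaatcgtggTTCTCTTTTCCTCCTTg
RPL19, chr17:39200268-39200297, plus strand: tgggCTCTCCCCTTCgcagataatgggagg
RPL38, chr17:74203663-74203692, plus strand: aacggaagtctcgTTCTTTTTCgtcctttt
RPS23, chr5:82278340-82278369, minus strand: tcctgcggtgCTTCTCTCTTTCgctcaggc
RPLP1, chr15:69452803-69452832, plus strand: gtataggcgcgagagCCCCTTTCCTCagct
RPS29, chr14:49598696-49598725, minus strand: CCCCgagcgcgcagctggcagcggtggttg
RPL14, RPL22 and RPS24 are the core genes whose groups of arrays did not overlap below, RPL38 and RPS23 had signals near the top of the array's range, and RPS29 had no run of that length in this 30-base window. In RPL19 the run in capitals lies wholly before the annotated start, whose base is G. Among the genes with an L or L1 suffix, which are relatives of core genes rather than fixed subunits, 1 of 5 matched start sites had the run, against 37 of 41 of the other members. That one was RPL22L1, shown with 3 relatives and the core genes RPS27 and RPL26.
RPL22L1, chr3:170870181-170870210, minus strand: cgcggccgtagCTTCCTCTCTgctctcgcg
RPS27L, chr15:63157463-63157492, minus strand: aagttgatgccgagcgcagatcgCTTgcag
RPS27, chr1:153990747-153990776, plus strand: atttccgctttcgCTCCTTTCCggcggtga
RPL26L1, chr5:172958714-172958743, plus strand: agTCTTCCaggggtcggcgaacgaaacgcg
RPL26, chr17:8383179-8383208, minus strand: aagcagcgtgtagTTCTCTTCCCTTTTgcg
RPL7L1, chr6:42879601-42879630, plus strand: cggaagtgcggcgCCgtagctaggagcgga
A match is a description of letters near an annotated start and not of a measured start in these cells.

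Ribosomal protein signals sat close to the top of the array. Values are log2 signals per probe set after RMA, a method that subtracts background, equalises the arrays and summarises the probes of a set. Of the 52 members, 42 had a mean of at least 15 and 31 of at least 16, and 29 were among the 100 highest probe sets. Another 41 of those 100 had no name in the annotation used, and whether they read ribosomal protein genes was not tested. Such unnamed probe sets also count among the other probe sets with a mean of at least 15 used below. The array medians were 5.99 to 6.01 and the highest single value in the table was 17.87. RPL38, of the large subunit, averaged 17.7, and RPS23, a protein of the decoding centre, averaged 17.6. Signals of different probe sets depend on their probes, so these levels do not rank the genes by mRNA. How far signals this near the top compress a difference was not tested. Since RMA equalises the arrays, a shift shared by many of the highest probe sets may be reduced before the comparison. How far this applies to the members was not tested either.

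The comparison asked whether mRNA of the ribosomal proteins differed between the vectors, and no member passed. With limma and Benjamini-Hochberg adjustment over all 21448 probe sets, 0 of 52 members were called at an adjusted p under 0.05, where 0.569% of all probe sets were (0.131% higher and 0.438% lower with miR-543). The smallest adjusted p of a member was 0.551. At an unadjusted p under 0.05 the count was again 0 of 52, against 10.6% of all probe sets and 5 of the 268 other probe sets with a mean of at least 15. That count was 1, RPS27L, with an intensity trend and robust settings (limma unadjusted p = 0.0298). It was also 1, RPS27L, without control array 3 (limma unadjusted p = 0.0195). The fitted log2 change, miR-543 vector minus control vector, was above 0 for 26 members, below 0 for 25 and 0 for RPS23. Its median was 0.0017, beside 0.013 over all probe sets, and its range was -0.19 to 0.30. For 36 members it was under 0.1 in size, against 36.4% of all probe sets.

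The 95% interval lay within 1.5-fold in either direction for 51 of 52 members, against 62.4% of all probe sets and 251 of the 268 other probe sets with a mean of at least 15, and within 2-fold for all 52. The exception to 1.5-fold was RPS27L, whose interval reached 0.64 on the log2 scale. The lowest bound of any member was -0.54, for RPL27. The median half-width of the interval was 0.30. limma draws each probe set's SD toward a common value of 0.201, above the members' own median SD within groups of 0.097, so the interval of a low-spread member was wider than its own arrays alone would give. With an intensity trend and robust settings the median half-width was 0.17 and the smallest adjusted p of a member was 0.354. The other 268 probe sets with a mean of at least 15 had a median SD of 0.094 and a median change in size of 0.070, the latter also 0.070 for the members.

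**Figure D1:**
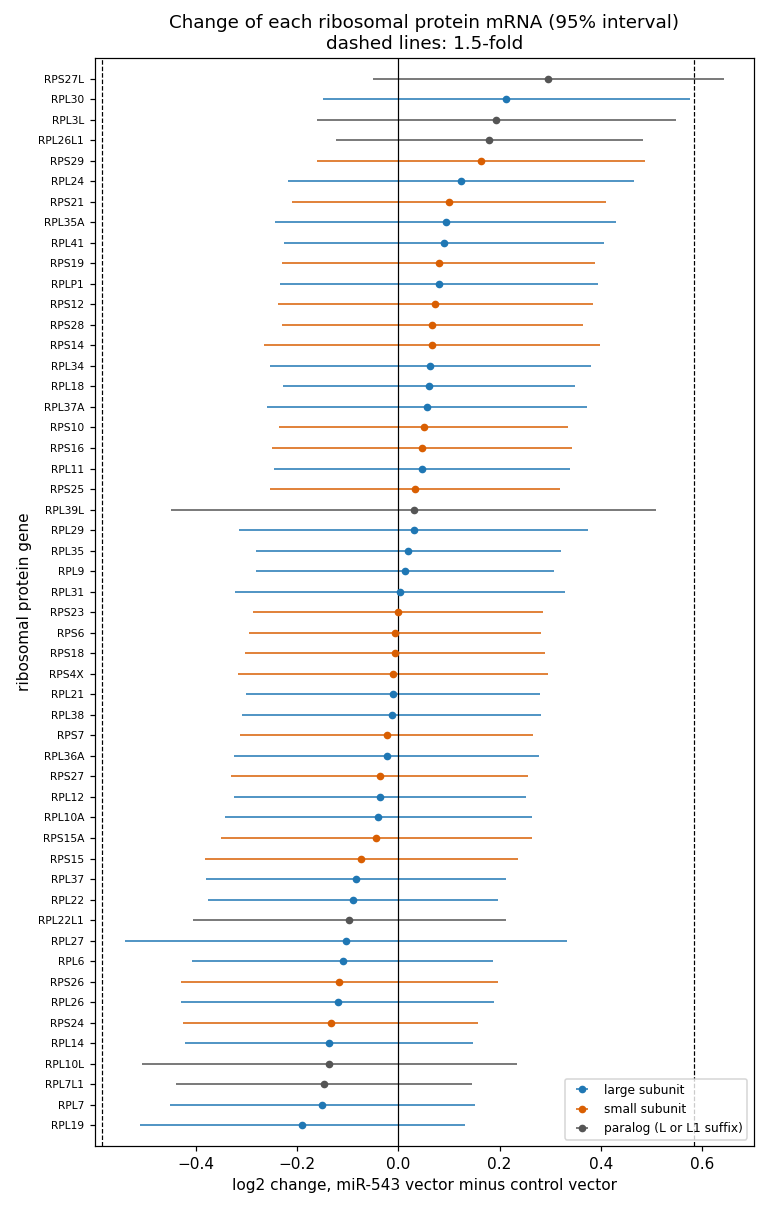
Fitted log2 change of each of the 52 ribosomal protein genes (horizontal axis, miR-543 vector minus control vector) with its 95% interval, 3 arrays against 3, ordered by change and coloured by subunit or as a paralog. Points run from -0.19 for RPL19 to 0.30 for RPS27L, every interval spans 0, and that of RPS27L alone crosses the dashed 1.5-fold line.

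The small subunit gave a median log2 change of 0.017 over 20 genes, 10 of them above 0 and 9 below, with 0 called. Its members at the mRNA channel and decoding centre, of which 5 of the 7 listed were measured, had changes from -0.12 for RPS26, which contacts the mRNA where it leaves, to 0.067 (RPS14 and RPS28). RPS14, whose loss is known from the 5q- form of myelodysplasia, read 14.24, 14.22 and 14.38 on control arrays 1 to 3 and 14.44, 14.12 and 14.48 on the miR-543 arrays. The miR-543 arrays lay on both sides of the control arrays. RPS23 read 17.58, 17.65 and 17.62 with the control vector and 17.61, 17.60 and 17.64 with the miR-543 vector, which overlap throughout. RPS24 read 17.04, 16.98 and 17.12 with the control vector and 16.93, 16.94 and 16.87 with the miR-543 vector. All 3 miR-543 arrays of RPS24 were below all 3 control arrays, with a log2 change of -0.13 (95% interval -0.42 to 0.16, limma adjusted p = 0.788). RPS29 read 15.13, 15.24 and 15.46 against 15.33, 15.47 and 15.52, a log2 change of 0.16 with overlapping groups (limma adjusted p = 0.757). Its change was 0.090 without control array 1 and 0.255 without control array 3.

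The large subunit gave a median of -0.0033 over 32 genes, 16 above 0 and 16 below, with 0 called. RPL19, which lies near the exit of the peptide tunnel, had the lowest log2 change, -0.19 (SE 0.14, 95% interval -0.51 to 0.13, limma adjusted p = 0.707). Its control arrays read 15.66, 15.31 and 15.59 and its miR-543 arrays 15.36, 15.31 and 15.32, so that control array 2 equalled the lowest miR-543 array. RPL30, a protein of the subunit interface, had the highest change of a core gene, 0.21 (SE 0.16, limma adjusted p = 0.709). It read 16.12, 16.06 and 16.51 with the control vector and 16.31, 16.43 and 16.59 with the miR-543 vector, where control array 3 lay above 2 of the miR-543 arrays. With each array left out in turn, the change of RPL19 ran from -0.295 (without control array 2) to -0.12 (without control array 1), and that of RPL30 from 0.13 (without control array 2) to 0.35 (without control array 3). RPL7, which binds the large ribosomal RNA, had a log2 change of -0.15 (SE 0.14, limma adjusted p = 0.761), from 16.45 ± 0.12 to 16.30 ± 0.023 (SD, n = 3). Of 9 proteins listed for the tunnel and its exit 5 were measured, with changes from -0.19 to 0.020 and a median of -0.090, the others being RPL22 at -0.090, RPL26 at -0.12, RPL31 at 0.0033 and RPL35 at 0.020.

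The acidic stalk and the 5S particle were represented by 1 protein each. RPLP1, of the acidic stalk that recruits elongation factors, read 16.28, 16.31 and 16.54 with the control vector and 16.40, 16.41 and 16.56 with the miR-543 vector. The groups overlapped, and the log2 change was 0.080 (95% interval -0.23 to 0.39). RPL11, which joins the 5S RNA in a particle that also binds MDM2, read 16.60, 16.49 and 16.59 against 16.56, 16.59 and 16.67. These groups overlapped as well, with a change of 0.047 (95% interval -0.25 to 0.34).

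Genes of Diamond-Blackfan anaemia were taken from general knowledge, and 17 of the 23 listed were measured. Of these 10 had a log2 change above 0 and 7 one below it. The median was 0.013, with a range of -0.13 to 0.16 and 0 called. RPS19, the gene most often mutated in that disease, read 16.23, 16.28 and 16.44 with the control vector and 16.29, 16.40 and 16.50 with the miR-543 vector. The groups overlapped, with a change of 0.080 (95% interval -0.23 to 0.39).

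The groups of arrays did not overlap for 5 of 52 members, against 15.4% of all probe sets. RPL26L1 was higher with the miR-543 vector (background 7.89%), and RPL14, RPL22, RPS24 and RPL7L1 were lower (background 7.5%). RPL22 is named here because its arrays did not overlap, a choice made after its values were seen. RPL14, of the large subunit, read 16.68, 16.72 and 16.70 with the control vector and 16.57, 16.55 and 16.57 with the miR-543 vector. The difference of 0.14 was large beside an SD within groups of 0.016, and small as a fold. Its 95% interval was -0.42 to 0.15 (limma adjusted p = 0.773), and with the intensity trend it was -0.28 to 0.010 (limma adjusted p = 0.472). RPL22, an RNA-binding protein near the tunnel exit, read 17.23, 17.23 and 17.22 against 17.16, 17.16 and 17.09, a change of -0.090 (95% interval -0.38 to 0.20). Both lists of values are tight within groups, and neither gene passed.

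**Figure D2:**
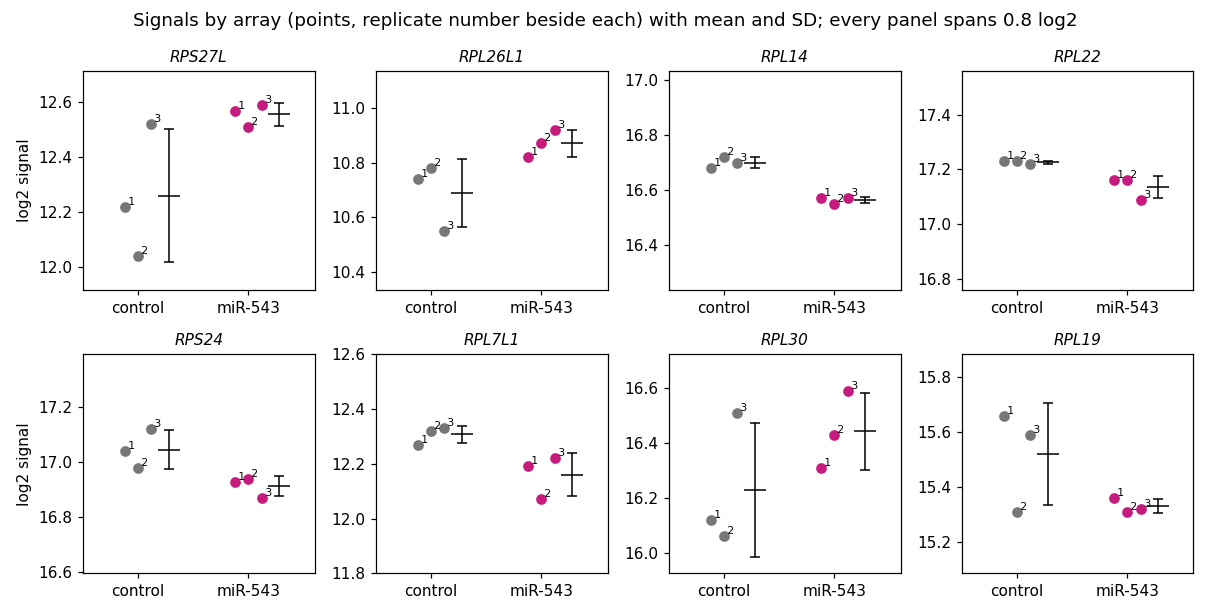
Log2 signal (vertical axis) of 8 ribosomal protein genes on 3 control vector arrays and 3 miR-543 vector arrays, with replicate numbers beside the points and the mean and SD of each group beside them. The groups do not overlap for RPL26L1, RPL14, RPL22, RPS24 and RPL7L1, and for RPS27L and RPL30 control array 3 stands apart from control arrays 1 and 2.

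The 7 members with an L or L1 suffix are relatives of core genes, several of them known from particular tissues. Their log2 changes ran from -0.15 to 0.30, 4 above 0 and 3 below, with 0 called. RPS27L, a relative of RPS27, had the highest change of all members, 0.30 (SE 0.16, 95% interval -0.049 to 0.64, limma adjusted p = 0.551). It read 12.22, 12.04 and 12.52 with the control vector and 12.57, 12.51 and 12.59 with the miR-543 vector. Control array 3 reached into the miR-543 range, and without it the change was 0.43 (95% interval 0.088 to 0.76, limma adjusted p = 0.344). Without control array 2, the lowest array, the change was 0.19 (95% interval -0.18 to 0.55, limma adjusted p = 0.77). RPL26L1, a relative of RPL26, read 10.74, 10.78 and 10.55 against 10.82, 10.87 and 10.92. All 3 miR-543 arrays were higher, by 0.18 on the log2 scale (limma adjusted p = 0.706). RPL7L1, a relative of RPL7, read 12.27, 12.32 and 12.33 against 12.19, 12.07 and 12.22, a change of -0.15 (limma adjusted p = 0.759).

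The remaining relatives had overlapping groups. RPL22L1, which can stand in for RPL22, had a change of -0.097 (limma adjusted p = 0.867). RPL3L, the form of RPL3 known from striated muscle, read 8.18, 8.12 and 8.29 against 8.11, 8.47 and 8.59, a change of 0.19 (limma adjusted p = 0.733). RPL39L, known from the male germline, had a change of 0.030, and its arrays spread from 6.70 to 7.51. RPL10L, a retrogene of RPL10 also known from the male germline, averaged 4.53 over the 6 arrays, below the array medians, so its change of -0.14 rests on a dim signal.

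For 4 of these relatives the core gene was measured too, and the difference between the pair was compared over arrays. The gap between RPS27L and RPS27 moved from -4.42 ± 0.19 to -4.09 ± 0.051 on the log2 scale (SD, n = 3), a shift of 0.33 (two-sided exact permutation p = 0.1, adjusted over 4 pairs 0.4). For RPL26L1 and RPL26 the shift was 0.30 (exact permutation p = 0.2, adjusted 0.4). For RPL22L1 and RPL22 it was -0.0067, and for RPL7L1 and RPL7 it was 0.0033 (exact permutation p = 0.9 and 1, both adjusted 1). With 3 arrays against 3 the smallest possible p is 0.1, so this test could not pass 0.05.

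The members' median moved more between arrays of one group than between the groups. Against each gene's mean over the 6 arrays, the median deviation of the 52 members was -0.040, -0.068 and 0.096 on control arrays 1, 2 and 3, and -0.019, -0.020 and 0.049 on miR-543 arrays 1, 2 and 3. Array 3 of each group was thus the high one. Control array 3 was the highest of its group for 37 of 52 members, where 32.5% of all probe sets had it highest, and miR-543 array 3 for 33 of 52, against 33.4%. For the other 268 probe sets with a mean of at least 15 the median deviation was 0.027 on control array 3 and -0.027 on miR-543 array 3. Replicate numbers are names, and nothing in the labels ties the arrays numbered 3 to each other.

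Control array 3 was furthest from its group in RPL27, of the large subunit, which read 12.49, 12.51 and 13.06 with the control vector and 12.47, 12.40 and 12.88 with the miR-543 vector. RPL24, which bridges the subunits, read 15.27, 15.30 and 15.69 with the control vector. RPL35A, a Diamond-Blackfan anaemia gene, read 15.72, 15.75 and 16.12. The miR-543 arrays of RPL24 lay between 15.51 and 15.57 and those of RPL35A between 15.93 and 15.97, inside the control range in both cases. These 3 genes were chosen after their values were seen. Without control array 3 the count of members above 0 was 35 of 52 and the median change 0.052, with 0 called.

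**Figure D3:**
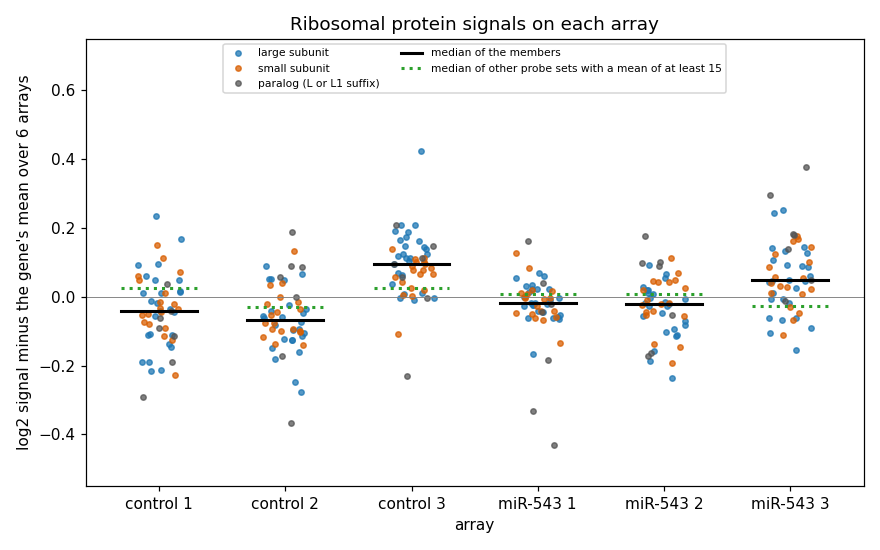
Log2 signal of each of the 52 ribosomal protein genes on each of the 6 arrays, minus the gene's mean over the 6 arrays (vertical axis). Black bars are medians of the members, 0.096 on control array 3 and 0.049 on miR-543 array 3 and below 0 on the other 4 arrays, and green dotted bars are medians of the other 268 probe sets with a mean of at least 15.

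Ribosomal protein genes have many near-identical copies in the genome, which a probe set may read as well, so each level is uncertain in that respect. RefSeq lists at least 1 pseudogene named after 46 of the 52 members, with a median of 20 for the core genes and a maximum of 137, for RPL21. The probe set that the platform assigns to RPL21 carries chromosome 10 in its identifier, while RefSeq places the gene on chromosome 13, and how much of its level of 15.2 comes from a copy was not tested. Its log2 change was -0.010, and leaving it out gave a median of 0.0033.

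Genes around the ribosome were read from lists compiled from general knowledge. Cytosolic ribosomal proteins outside the symbol rule were represented by FAU, the precursor of a small subunit protein, at a log2 change of 0.18 (limma adjusted p = 0.766), and RPL36AL, a relative of RPL36A, at -0.12 (limma adjusted p = 0.857). Of 21 translation factors and other genes with the pyrimidine tract 14 were measured, 5 above 0 and 9 below (median -0.032, 0 called). NPM1, a nucleolar chaperone, had a change of -0.27, EIF3L one of -0.26 and EIF3E one of -0.21, with limma adjusted p-values of 0.596, 0.597 and 0.665. Of 16 genes that control the tract or belong to mTORC1 signalling 7 lay above 0 and 8 below (median -0.0067, 0 called). TSC2, which restrains mTORC1, had a change of 0.55 (limma adjusted p = 0.28) and its activator RHEB one of -0.32 (0.551). The translation repressor EIF4EBP1 had one of 0.29 (0.583), which was 0.13 without control array 1. Among genes of the mTORC1 complex, RPTOR was at 0.28, MTOR at 0.12, AKT1S1 at 0.053 and MLST8 at -0.10. Their limma adjusted p-values were 0.626, 0.819, 0.945 and 0.859.

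Chaperones of ribosomal proteins and late assembly factors gave 17 of 24 genes below 0 and 7 above, with a median of -0.13 and 0 called. Over all probe sets 10095 of 21448 lay below 0, with a median of 0.013. The groups of arrays did not overlap for 7 of the 24 genes, 6 of them lower, against 15.4% of all probe sets. Whether the list differs from all probe sets was not tested. SBDS, which helps to free the new large subunit of EIF6 and is mutated in Shwachman-Diamond syndrome, read 12.37, 12.03 and 11.91 with the control vector and 11.62, 11.62 and 11.52 with the miR-543 vector. All 3 miR-543 arrays were lower, by 0.52 on the log2 scale (95% interval -0.86 to -0.17, limma adjusted p = 0.27). GTPBP4, a GTPase of large subunit assembly, had a change of -0.43 (limma adjusted p = 0.276), and MDN1, the AAA ATPase that remodels the pre-60S particle, one of 0.49 (limma adjusted p = 0.28). Of 74 mitochondrial ribosomal proteins 40 lay above 0 and 34 below (median 0.027, range -0.40 to 0.44, 0 called). MRPS24 had a change of 0.44, MRPL17 one of -0.40 and MRPL32 one of -0.38 (limma adjusted p = 0.326, 0.326 and 0.357). None of the 15 snoRNA host genes listed was named on this array by the annotation used.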

How the data were processed

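The deposited table holds 1 log2 signal per probe set and array, which the authors made with Transcriptome Analysis Console 4.0 and RMA, per the submitters' processing notes. The annotation release and genome build are not given in the sources used here. Gene symbols are those of the platform annotation, checked by gene ID against RefSeq GRCh38.p14, and those of all 52 members were current. The groups came from the sample titles. The table held 0 columns of other samples.

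The test between groups was that of limma 3.58.1 (R 4.3.3, lmFit, then eBayes without trend, no filter), two-sided, on all 21448 probe sets, with Benjamini-Hochberg adjustment and 95% intervals. The steps were also run on simulated data with the SDs shuffled over probe sets, which does not show what could be found among these low-spread members. The prior had 6.25 degrees of freedom. The number of arrays limits the precision. Named were the 12 members with the smallest p, the highest and lowest by level, the 3 largest changes each way, the stalk, 5S and suffixed members, up to 3 genes of each related list, and ends of ranges. RPS14, RPS19, RPS23, the genes of the tunnel and those of the mTORC1 complex were added after their values were seen. The members and lists were chosen with earlier results of these data known.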

Additional observations from a re-analysis of the deposited data

How the results depend on the processing

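The count of called ribosomal protein genes was 0 in each direction under every alternative fit. These were trend and robust settings, shifted medians, a further quantile normalization, a filter at the median signal (which removed RPL10L), the replicate block, and each array left out. With 1 array left out, 34 to 59 of all probe sets were called in place of 122, so a count of 0 there says less. Changed membership reused the main fit, so leaving out members could not alter a count of 0. Adding FAU and RPL36AL also gave 0. The largest shift of the ribosomal protein genes' median came without control array 3 (0.052). Leaving out single arrays moved the median of the suffixed members between -0.14 and 0.20, that of tract control and mTORC1 genes between -0.033 and 0.052, that of chaperones and assembly factors between -0.13 and -0.076 and that of mitochondrial ribosomal proteins between -0.020 and 0.053. RPL38 (range -0.043 to 0.035) turned sign without control replicate 3 (0.035) or miR-543 replicate 2 (0.012). RPL39L (range -0.15 to 0.25) turned sign without control replicate 1 (-0.11) or miR-543 replicates 2 or 3 (-0.012 and -0.15). The cause was not tested. Over all probe sets, deviations of same-numbered arrays correlated at 0.095, -0.053 and 0.018, and 2 of 6 arrays correlated best with their own number. Whether same-numbered arrays share a culture or batch was not tested. With the replicate block 71 of all probe sets were called in place of 122, and 0 ribosomal protein genes.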

Other observations

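Besides the members, 3 probe sets carried the name of a read-through transcript that joins a ribosomal protein gene to its neighbour. RPL17-C18orf32 (chromosome 18) read 16.72, 16.68 and 16.81 with the control vector and 16.66, 16.63 and 16.62 with the miR-543 vector, a log2 change of -0.10 with groups that did not overlap (limma adjusted p = 0.851). RPL36A-HNRNPH2 (chromosome X) had a change of -0.010 and RPS10-NUDT3 (chromosome 6) one of 0.10 (limma adjusted p = 0.991 and 0.867), and the part of the ribosomal protein gene itself in these signals was not tested.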
